A study of Mus musculus with 6 samples.

Results

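The 10 genes described here encode heat shock proteins and their cochaperones: the HSP70 proteins Hspa1a, Hspa1b, Hspa8 and Hspa5, the HSP90 proteins Hsp90aa1 and Hsp90ab1, the small heat shock protein Hspb1, the mitochondrial co-chaperonin Hspe1, and the J proteins Dnaja1 and Dnajb1. They were taken by gene symbol from a table of 20129 genes measured by RNA sequencing in microglia, the resident macrophages of the brain. All 10 symbols were found, and all 10 genes passed the filter on low values. The 6 libraries comprised 3 from Il3-/-5xFAD mice (replicates 1, 2 and 3) and 3 from 5xFAD mice (replicates 4, 5 and 6). The mice of both genotypes were 5 months old, of the strain C57BL6/J, and carried the 5xFAD transgenes, mutant human genes of familial Alzheimer's disease that the Thy1 promoter drives in neurons. The Il3-/-5xFAD mice lacked in addition the gene of interleukin-3, a cytokine whose production by astrocytes and action on microglia the study examined. Each library held cells pooled from 4 mice, 2 male and 2 female, so p-values here measure the spread between 3 pools per genotype. The brains were digested with enzymes for 40 min at 37 °C, and live CD45+ CD11b+ cells were then sorted.

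HSP70 proteins bind unfolded stretches of client proteins in a cycle driven by ATP. J proteins deliver the clients and trigger ATP hydrolysis, nucleotide exchange factors reset the cycle, and HSP90 with its own cochaperones takes over clients such as kinases and steroid receptors. Heat and other stress to proteins free the transcription factor HSF1, which binds repeats of the unit nGAAn, called heat shock elements, and raises the inducible members, while stress in the endoplasmic reticulum raises Hspa5 through a separate element. In microglia and other sorted brain cells, inducible heat shock genes are also known as targets of the warm enzymatic dissociation itself.

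Between Il3-/-5xFAD and 5xFAD microglia, 0 of the 10 heat shock genes passed the test at an adjusted p under 0.05 with limma, edgeR or DESeq2, where limma called 0.882%, edgeR (TMM) 0.504% and DESeq2 5.08% of all genes tested. At an unadjusted p under 0.05 limma found 0 of 10 as well, against 16.5% of all genes tested. The fitted log2 differences (Il3-/-5xFAD minus 5xFAD) ran from -0.19 for Hspe1 to 0.49 for Hspb1. The spread among the 3 pools of one genotype was larger than the difference between genotypes for the cytosolic HSP70 and HSP90 genes, and the same libraries, replicate 1 of Il3-/-5xFAD and replicate 4 of 5xFAD, stood highest for nearly all members.

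Since HSF1 and the factors of endoplasmic reticulum stress act at such elements, the 250 bases before the start site are shown for 4 members, from the RefSeq table of mouse promoters (build GRCm38.p6, while the submitters' processing notes name mm9 for the counts). Capitals mark matches to heat shock elements in Hspa1a, Hspb1 and Hspe1, and to the endoplasmic reticulum stress element in Hspa5.
Hspa1a, chr17:34972157-34972406, minus strand: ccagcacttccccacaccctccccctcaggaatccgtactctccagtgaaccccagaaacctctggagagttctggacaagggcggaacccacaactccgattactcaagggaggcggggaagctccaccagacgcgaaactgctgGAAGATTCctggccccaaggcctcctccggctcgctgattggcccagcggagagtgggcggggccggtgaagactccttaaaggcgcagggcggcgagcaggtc
Hspb1, chr5:135887669-135887918, plus strand: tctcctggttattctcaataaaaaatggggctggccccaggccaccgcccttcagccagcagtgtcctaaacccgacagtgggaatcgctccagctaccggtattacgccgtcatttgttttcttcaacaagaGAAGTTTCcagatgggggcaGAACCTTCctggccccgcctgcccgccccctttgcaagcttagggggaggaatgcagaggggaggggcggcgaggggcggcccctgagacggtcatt
Hspe1, chr1:55087898-55088147, plus strand: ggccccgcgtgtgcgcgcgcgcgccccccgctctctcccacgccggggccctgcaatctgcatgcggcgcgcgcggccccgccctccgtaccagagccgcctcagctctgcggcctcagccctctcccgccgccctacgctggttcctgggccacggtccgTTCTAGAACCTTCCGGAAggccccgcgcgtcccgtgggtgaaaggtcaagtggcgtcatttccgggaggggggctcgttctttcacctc
Hspa5, chr2:34771840-34772089, plus strand: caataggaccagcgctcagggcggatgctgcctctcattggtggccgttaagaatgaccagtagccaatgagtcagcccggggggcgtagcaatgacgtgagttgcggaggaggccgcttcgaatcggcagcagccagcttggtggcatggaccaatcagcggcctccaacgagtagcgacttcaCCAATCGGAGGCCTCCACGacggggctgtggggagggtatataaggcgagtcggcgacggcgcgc

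Promoter entries matched 7 of the 10 members, all except Hspa8, Hsp90aa1 and Hsp90ab1, with 10 start sites in all. Windows of 300 bases (250 before to 50 after the start) were searched on both strands. The motifs were GAANNTTC and TTCNNGAA (each with 2 units of the heat shock element), GAANNTTCNNGAA (3 units, which contains the other ones) and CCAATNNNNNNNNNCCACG (the endoplasmic reticulum stress element). Hspe1 was the 1 member of these 7 with the motif of 3 units, in overlapping matches on both strands from -89 to -72, a motif found in 0.603% of all 32851 windows of the table. Hspb1 held GAANNTTC at 2 places, from -117 to -110 and from -97 to -90. Hspa1a and Hspa1b each held it once, from -104 to -97, and 1 of 3 windows of Dnaja1 held it once. A heat shock element of either length was found in 5 of the 7 members, against 17.0% of all genes in the table, and in 5 of their 10 windows, against 15.1% of all windows. GAANNTTC alone was in 7.86% of all windows. Neither of the Dnajb1 windows held a match, and Hspa5 held none of the heat shock motifs but 1 endoplasmic reticulum stress element from -65 to -47, which 0.119% of all windows held. The windows of Hspa1a and Hspa1b were identical at 296 of 300 positions. The 4 substitutions from Hspa1a to Hspa1b were C44T, T47C, T249G and C276T, counted from 1 at the 5′ end of the window. A match is an exact fit to these letters, so elements with an altered base or spacing were not counted, and binding was not measured.

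The libraries held 27970850 to 37605490 reads, recovered from the deposited reads per 1000000 (CPM), and reads were found for 14435 to 17245 genes per library. Il3 itself, as a check of the labels, had 0 reads in each of the 3 Il3-/-5xFAD libraries, which allows up to 0.107 CPM, and 54, 61 and 29 reads in the 5xFAD libraries. Microglia markers summed to 38109 to 41646 CPM in Il3-/-5xFAD and 36436 to 38564 CPM in 5xFAD libraries. Neutrophil markers summed to 911 to 1471 CPM in Il3-/-5xFAD and 1921 to 3993 CPM in 5xFAD libraries, and limma called 5 of 13 tested lower. That count was 0 without replicate 5 or replicate 6 of 5xFAD and 10 without replicate 4, 2 without replicate 2 and 8 without replicate 3 of Il3-/-5xFAD, 0 with edgeR (TMM) and 7 with DESeq2. Monocyte markers (99.4 to 195 CPM in Il3-/-5xFAD, 205 to 366 CPM in 5xFAD) and T cell markers (40.5 to 49.7 CPM in Il3-/-5xFAD, 78.6 to 168 CPM in 5xFAD) had 3 of 8 called lower each by limma. For monocyte markers this was 0 without replicate 5 or 6 and 1 without replicate 2, and for T cell markers 0 without replicate 2 or 6 and 5 without replicate 5. In each of these lists edgeR (TMM) called 2 and DESeq2 5 lower. With all genes unfiltered or without the variance trend, limma called 0 in the neutrophil, monocyte and T cell lists. Of all genes tested, limma called 0.882%, edgeR (TMM) 0.504% and DESeq2 5.08%. Choroid plexus markers summed to 63.1 to 130 CPM in Il3-/-5xFAD and 182 to 515 CPM in 5xFAD libraries, with 2 of 4 called lower by limma. That count was 0 without replicate 6, 1 without replicate 1 or 3, 0 with edgeR (TMM) and 2 with DESeq2. With limma, 0 genes were called in the lists of astrocyte markers (7.79 to 15.4 CPM in Il3-/-5xFAD, 20.3 to 43.5 CPM in 5xFAD), oligodendrocyte markers (157 to 171 CPM in Il3-/-5xFAD, 186 to 199 CPM in 5xFAD) and endothelial markers (55.3 to 58.9 CPM in Il3-/-5xFAD, 59.2 to 78.7 CPM in 5xFAD). The summed levels of these 3 lists did not overlap between the genotypes, nor did the neutrophil, monocyte, T cell and choroid plexus sums. For endothelial markers the gap was narrow (58.9 against 59.2 CPM), and of single genes tested 21.2% stood apart. In each of the 3 lists edgeR called 0 and DESeq2 1 gene. With limma, 2 (astrocyte), 2 (oligodendrocyte) and 1 (endothelial) were under 0.05 unadjusted, and leaving out 1 library gave 0 to 2 calls in a list. Neuron markers (2.13 to 3.43 CPM in Il3-/-5xFAD, 2.49 to 5.01 CPM in 5xFAD) and B cell markers (10.4 to 21.2 CPM in Il3-/-5xFAD, 13.4 to 19.4 CPM in 5xFAD) overlapped. No marker of these lists was at 0 in all libraries, and the part of these cells in the values of the heat shock genes was not tested. In bulk RNA, fewer cells of a type and less RNA per cell cannot be told apart.

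Among the strongly heat-inducible members, Hspa1a, the stress-inducible cytosolic HSP70, had 358, 211 and 189 CPM in the Il3-/-5xFAD libraries, against 326, 185 and 191 CPM in the 5xFAD libraries. Replicate 1 of Il3-/-5xFAD and replicate 4 of 5xFAD were high, the other 4 libraries lay close together, and the genotypes overlapped. The mean was 253 ± 92.0 CPM in Il3-/-5xFAD and 234 ± 80.1 CPM in 5xFAD (SD, n = 3 each), and limma gave 0.10 ± 0.24 (log2, SE; adjusted p = 0.874). Hspa1b, its neighbouring copy, had 499.8, 257 and 235 CPM in Il3-/-5xFAD, against 432, 273 and 279.7 CPM in 5xFAD. The same 2 libraries were high, and the log2 difference was -0.04 ± 0.25 (SE; limma, adjusted p = 0.956), although the mean CPM was marginally higher in Il3-/-5xFAD (331 ± 147) than in 5xFAD (328 ± 90.0). The sign of the Hspa1b difference was positive under edgeR and DESeq2.

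How reads were split between Hspa1a and Hspa1b is uncertain, since 60.3% of the 50-base stretches of Hspa1a transcripts occur in another gene, 58.8% in Hspa1b. Their sum, which such a split leaves unchanged, was 858, 468 and 424 CPM in Il3-/-5xFAD, against 759, 458 and 471 CPM in 5xFAD libraries. The sums overlapped between the genotypes, with means of 584 ± 239 CPM in Il3-/-5xFAD and 562 ± 170 CPM in 5xFAD (SD, n = 3 each) and a log2 difference of 0.02 (exact two-sided permutation test, p = 0.9, where the smallest possible p is 0.1). Hspa1b made up 55.0% to 59.7% of the sum in every library.

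Hspb1, the small heat shock protein HSP25 that holds unfolded proteins without ATP, had the lowest level of the members per kilobase of transcript. Its values were 31.4, 19.6 and 16.5 CPM in Il3-/-5xFAD, against 24.1, 11.3 and 12.7 CPM in 5xFAD libraries, the lowest from 330 reads. Each Il3-/-5xFAD library except replicate 1 lay below replicate 4 of 5xFAD, and each lay above replicates 5 and 6. The log2 difference of 0.49 ± 0.27 (SE) was the largest of the members, with a 95% interval from -0.11 to 1.09 (limma, adjusted p = 0.408), that is, from 0.927-fold to 2.12-fold. Dnajb1, the J protein that is induced with HSP70 and drives its disaggregating activity, had 451, 442 and 277 CPM in Il3-/-5xFAD, against 422, 219 and 290.1 CPM in 5xFAD. Replicates 1 and 2 of Il3-/-5xFAD lay above all 5xFAD libraries, and replicate 3 lay below replicates 4 and 6. The difference was 0.35 ± 0.22 (SE; limma, adjusted p = 0.461), and leaving out 1 library moved it between 0.12 and 0.59. Hsp90aa1, the stress-inducible cytosolic HSP90, had 333, 302 and 229 CPM in Il3-/-5xFAD, against 343, 209 and 237 CPM in 5xFAD libraries. Its genotypes overlapped over nearly their whole range, and limma gave 0.15 ± 0.17 (log2, SE; adjusted p = 0.718).

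**Figure D1:**
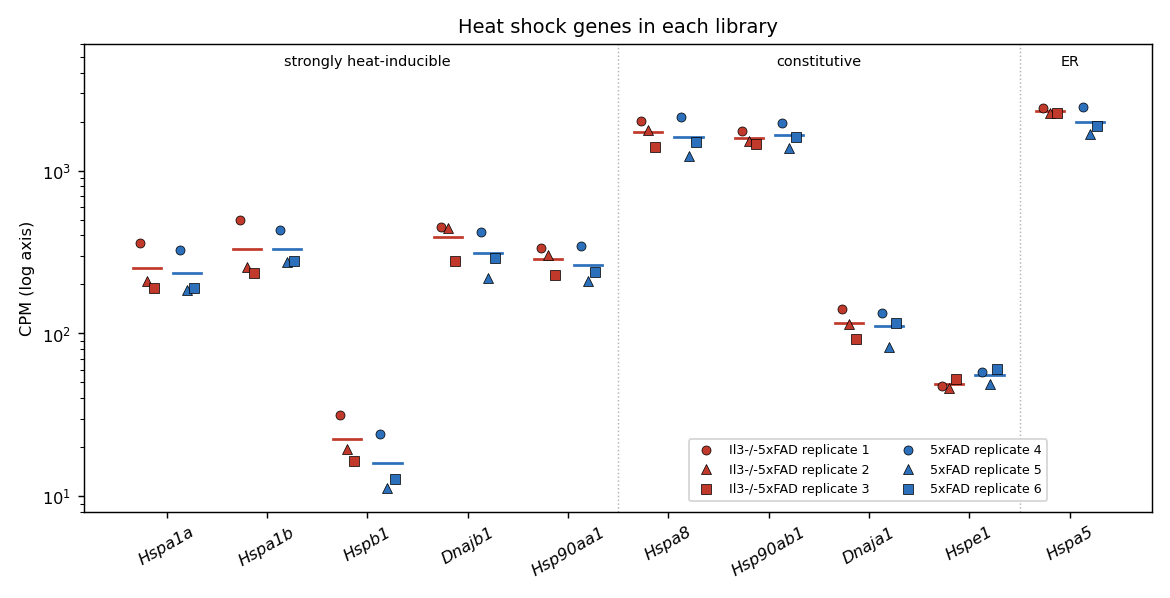
CPM on a log axis for each of the 10 heat shock genes, grouped as strongly heat-inducible, constitutive and endoplasmic reticulum (ER), with 1 point per library and a bar at the mean of each genotype (n = 3 each). Circles, replicates 1 and 4, are the highest points of both genotypes for every gene except Hspe1, and the points of the genotypes overlap for all 10 genes.

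Among the constitutive members, Hspa8, the constitutive HSP70 (HSC70) that also uncoats clathrin vesicles and serves chaperone-mediated autophagy, had 2005, 1775 and 1389 CPM in Il3-/-5xFAD, against 2122, 1239 and 1495 CPM in 5xFAD libraries. The genotypes overlapped, and the log2 difference was 0.11 ± 0.18 (SE; limma, adjusted p = 0.817). Hsp90ab1, the constitutive cytosolic HSP90, had 1759, 1517 and 1461.5 CPM in Il3-/-5xFAD, against 1968, 1374 and 1621 CPM in 5xFAD, and limma gave -0.06 ± 0.13 (log2, SE; adjusted p = 0.879). Its 95% interval, -0.34 to 0.23, was the narrowest among the cytosolic HSP70 and HSP90 genes. Dnaja1, a J protein of the cytosol that works with HSC70, had 141, 114 and 92.2 CPM in Il3-/-5xFAD, against 134, 82.6 and 115 CPM in 5xFAD. Its libraries interleaved, and limma gave 0.07 ± 0.17 (log2, SE; adjusted p = 0.883).

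Hspe1, the lid of the mitochondrial chaperonin whose barrel is Hspd1, followed another pattern than the 9 other members. It had 47.4, 46.3 and 52.9 CPM in Il3-/-5xFAD, against 58.2, 48.7 and 60.9 CPM in 5xFAD libraries, so that replicates 3 and 6 were the highest of their genotypes. The log2 difference was -0.19 ± 0.11 (SE; 95% interval -0.43 to 0.05; limma, adjusted p = 0.427). Among the fifth of genes with the shortest transcripts (136 to 1795 bases), which holds Hspe1 and Hspb1, the median log2 difference of all genes was -0.14, and the part of length in the Hspe1 value was not tested. Hspe1 and Hspd1 lie head to head and overlap on opposite strands, and whether the counting used strand is not given in the sources used here.

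Hspa5 (BiP), the HSP70 of the endoplasmic reticulum and sensor partner of the unfolded protein response, had 2423, 2275 and 2246 CPM in Il3-/-5xFAD, against 2454, 1674 and 1885 CPM in 5xFAD libraries. The 3 Il3-/-5xFAD libraries lay within 1.08-fold of each other and the 3 5xFAD libraries within 1.47-fold, with replicate 4 above all others. The mean was 2315 ± 94.9 CPM in Il3-/-5xFAD and 2004 ± 404 CPM in 5xFAD (SD, n = 3 each), with a log2 difference of 0.23 ± 0.13 (SE; 95% interval -0.06 to 0.52; limma, adjusted p = 0.430).

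By the test across all genes, limma called 0 of the 10 members at an adjusted p under 0.05, against 105 of 11900 genes tested (0.882%). At an unadjusted p under 0.05 the count was also 0 of 10, against 16.5% of genes tested, and the lowest unadjusted p was 0.0999, for Hspb1. For 0 of 10 members did the genotypes' libraries stand apart without overlap, against 21.2% of genes tested. edgeR and DESeq2, on the recovered reads, called 0 of 10. The log2 difference was positive for 7 members and negative for 3, with a median of 0.11, beside a median of -0.00 over all genes tested. Single libraries moved this median: it was -0.04 without replicate 1 of Il3-/-5xFAD and -0.05 without replicate 5 of 5xFAD, and 0.25 without replicate 3 of Il3-/-5xFAD and 0.34 without replicate 4 of 5xFAD. By class, the 5 strongly heat-inducible members had a median of 0.15 with 4 positive. The 4 members counted as constitutive (cytosol and mitochondria) had a median of 0.01 with 2 positive. Without replicate 5 these medians were -0.0010 (2 positive) and -0.15 (0 positive). Without replicate 4 they were 0.37 (5 positive) and 0.15 (3 positive). The classes were assigned, not measured, and among the 7 members with a promoter entry the motifs did not follow them. Hsp90aa1 (inducible), Hspa8 and Hsp90ab1 (both constitutive) had no entry and were not searched. Among the constitutive, Hspe1 held the heat shock motif of 3 units and Dnaja1 that of 2 units. Among the inducible, Hspa1a, Hspa1b and Hspb1 held that of 2 units, and Dnajb1 held none.

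**Figure D2:**
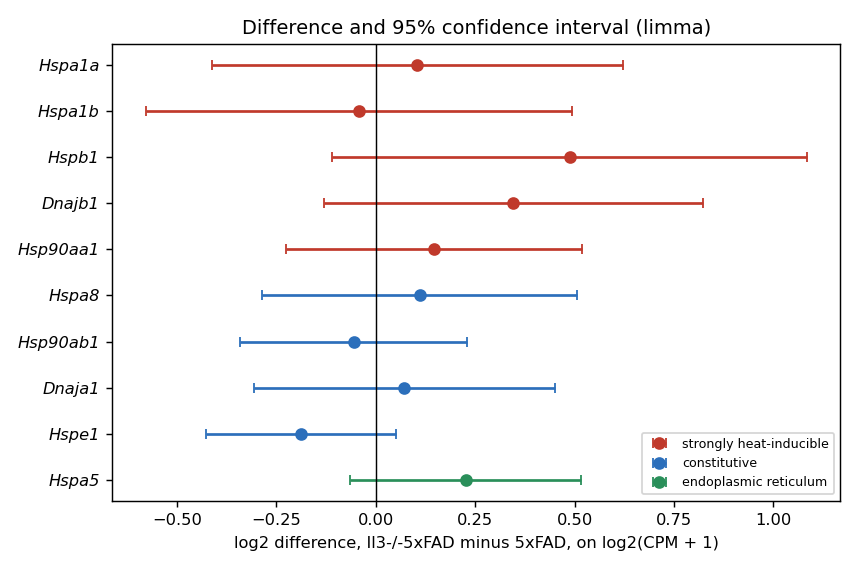
Log2 difference (Il3-/-5xFAD minus 5xFAD) on the log2(CPM + 1) scale for each heat shock gene, with its 95% confidence interval from limma, coloured by class. Every interval includes 0, the widest are those of Hspb1, Hspa1b and Hspa1a, and the narrowest is that of Hspe1.

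Whether the inducible forms moved against their constitutive relatives was asked with 3 log2 ratios within each library. For the J proteins, the ratio set the more against the less heat-inducible form. The ratio of Hspa1a plus Hspa1b over Hspa8 was -1.22, -1.92 and -1.71 in Il3-/-5xFAD, against -1.48, -1.43 and -1.67 in 5xFAD libraries. Replicate 1 stood above and replicates 2 and 3 below all 5xFAD libraries, so the Il3-/-5xFAD values spread around the 5xFAD ones (difference -0.09; exact two-sided permutation test, p = 0.7). Hsp90aa1 over Hsp90ab1 was -2.40, -2.32 and -2.67 in Il3-/-5xFAD, against -2.52, -2.71 and -2.77 in 5xFAD, with means of -2.46 ± 0.18 in Il3-/-5xFAD and -2.67 ± 0.13 in 5xFAD (SD, n = 3 each; exact two-sided permutation test, p = 0.2). Dnajb1 over Dnaja1 was 1.67, 1.95 and 1.58 in Il3-/-5xFAD, against 1.65, 1.40 and 1.32 in 5xFAD, with means of 1.73 ± 0.19 in Il3-/-5xFAD and 1.46 ± 0.17 in 5xFAD (SD, n = 3 each; exact two-sided permutation test, p = 0.2). In both of these ratios 2 of 3 Il3-/-5xFAD libraries lay above every 5xFAD library and replicate 3 overlapped with them. Adjusted over the 3 ratios by the Benjamini-Hochberg method, the exact permutation p-values were 0.7, 0.3 and 0.3, in a design whose smallest possible p is 0.1.

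**Figure D3:**
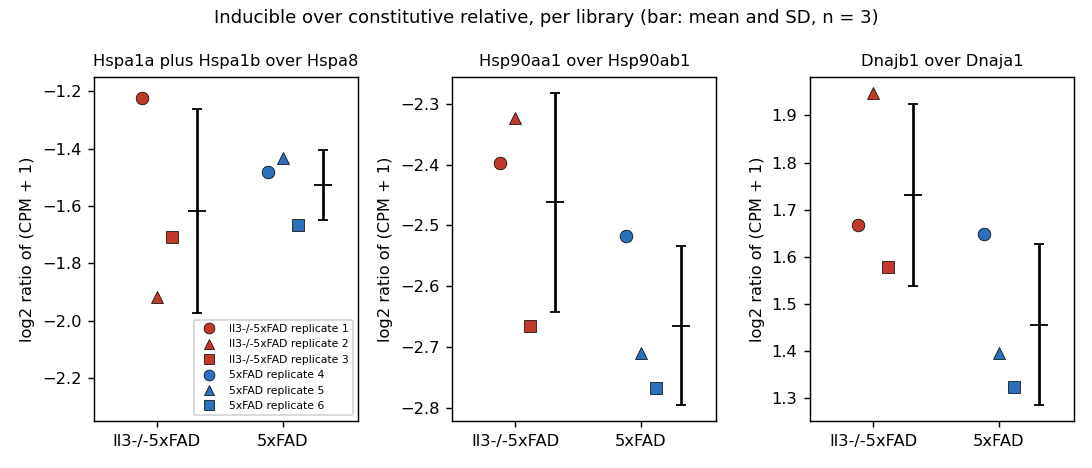
Log2 ratio of (CPM + 1) of each inducible form over its constitutive relative, or over the less heat-inducible form for the J proteins. There is 1 point per library and a bar for mean and SD (n = 3 each), Il3-/-5xFAD in red and 5xFAD in blue. The genotypes overlap in all 3 ratios, and the HSP70 ratio spreads over more of the axis in Il3-/-5xFAD (SD 0.36) than in 5xFAD (SD 0.12).

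Per kilobase of transcript, which allows levels to be compared between genes, the members fell into 3 tiers. Hspa8 (698 CPM per kilobase, mean of the 6 libraries), Hsp90ab1 (641.5) and Hspa5 (588) were the highest, and their ranges overlapped. Hspa1b (118), Dnajb1 (117), Hsp90aa1 (96.7), Hspa1a (82.1) and Hspe1 (67.7) followed, each overlapping with its neighbour in that order. Dnaja1 (33.5) and Hspb1 (21.3) were lowest in CPM per kilobase and also overlapped in range. Only between Hspa5 and Hspa1b and between Hspe1 and Dnaja1 were the ranges of neighbours separate. The transcript lengths were those of a later annotation (GENCODE vM21), and how much of each gene the counts covered is not given in the sources used here.

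Reads could be shared with near-copies for several members. The share of 50-base stretches that another annotated gene also holds was 62.3% for Hspa1b, 48.8% for Hspb1, 47.5% for Hsp90aa1, 38.6% for Hspa8, 18.4% for Hspe1 and 11.9% for Dnaja1, and it was 3.44% for Hsp90ab1, 0.380% for Dnajb1 and 0 for Hspa5. Apart from Hspa1a and Hspa1b, the sharing genes that stand in the table reached at most 2.72 CPM (Gm15459, which shares stretches with Hspa8). Whether reads that fit several genes were counted is not known here, so the levels of these members are uncertain to that extent. Hspa1a also overlaps Gm20481, and Dnaja1 overlaps Gm6297 and Smu1, on the opposite strand.

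The spread among pools of one genotype was wide for the heat shock genes. The SD of log2(CPM + 1) within a genotype was 0.51 for Hspb1, 0.50 for Hspa1b, 0.48 for Hspa1a and 0.44 for Dnajb1, then 0.34 for Hspa8 and 0.33 each for Dnaja1 and Hsp90aa1, beside a median of 0.16 over all genes tested. These 7 members ranked at percentile 96.0 to 99.4 among the 500 tested genes nearest to each in mean level. Hsp90ab1 (SD 0.21, percentile 89.2), Hspa5 (0.20, percentile 88.2) and Hspe1 (0.14, percentile 59.8) varied less. The genotype took up 0.284% of the variance of log2(CPM + 1) for Hspa1b, 1.78% for Hspa1a and 3.85% for Hspa8, but 25.6% for Hspb1, 31.5% for Hspa5 and 41.1% for Hspe1, beside a median of 23.0% over all genes tested.

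The spread ran along libraries rather than genes. Replicate 1 was the highest Il3-/-5xFAD library for 9 of 10 members and replicate 4 the highest 5xFAD library for 9 of 10, with Hspe1 the exception in both. Replicates 1 and 4 were the highest pair of all 6 libraries for 8 members. Replicate 3 was the lowest Il3-/-5xFAD library for 9 members, replicate 5 was the lowest 5xFAD library for all 10, and it was the lowest of all 6 for 8. Replicate 5 was at the same time the highest of all 6 libraries for 11 of 13 neutrophil and 5 of 8 monocyte markers, whose part in its heat shock values was not tested. Summed over the 10 members, the levels were 8050, 6959 and 6188 CPM in Il3-/-5xFAD, against 8282, 5315 and 6187 CPM in 5xFAD libraries, which is 0.805%, 0.696% and 0.619% of reads in Il3-/-5xFAD and 0.828%, 0.532% and 0.619% in 5xFAD. The sums overlap between the genotypes, and the highest of all is a 5xFAD library.

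Over the 6 libraries, the 36 pairs among the 9 members other than Hspe1 had Pearson's r from 0.53 to 0.99 (median 0.85) and Spearman's rho from 0.49 to 1.00 on log2(CPM + 1). The highest r were those of Hspa8 with Hsp90aa1 (0.99), of Hspa1a with Hspa1b (0.96, where shared reads may enter) and of Hsp90aa1 with Dnajb1 (0.96). Without replicates 1 and 4, the median r of these pairs over 4 libraries was 0.70 and the range was from -0.76 to 1.00. Since replicates 1 and 4 are the extremes of the members themselves, leaving them out can by itself lower r. The pairs of Hspa1b fell most and lay between -0.76 (with Hspa5) and 0.24 (with Hsp90ab1) over the 4 libraries. Some other pairs rose, such as Hspa1a with Dnajb1, from 0.77 to 0.98. The 9 pairs with Hspe1 had r from -0.25 to 0.42. These values describe 6 libraries in which all genes share depth, cell composition and handling. The genes outside the members closest to Hspa1a plus Hspa1b were Gtpbp2 (r = 0.98), Flii, Acsl3, 2810403A07Rik and AI597468, and those closest to Hspa8 were Nlk (r = 0.99), Kctd18, Sap25, Slc25a28 and Zfp758. With 9798 genes searched, 106 had r over 0.9 with Hspa1a plus Hspa1b and 87 with Hspa8.

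The immediate-early genes, which warm digestion is known to raise, were set beside the heat shock genes. All 24 such genes tested had a positive log2 difference, with a median of 0.35. With limma 0 of the 24 passed an adjusted p under 0.05, 15 were under 0.05 unadjusted (16.5% of all genes tested), and 4 (Dusp1, Klf6, Klf2 and Gadd45b) had libraries that stood apart between the genotypes (21.2% of all genes tested). DESeq2 called 6 of them higher in Il3-/-5xFAD and edgeR 0, where DESeq2 called 5.08% and edgeR (TMM) 0.504% of all genes tested. With array weights limma called 16 (8.0% of all genes tested), without replicate 3 of Il3-/-5xFAD 9 (4.99%) and without replicate 4 of 5xFAD 3 (1.91%). The median stayed positive under all 18 alternatives, from 0.27 to 0.51. Jun, a subunit of AP-1, had 8029, 7585 and 5910 CPM in Il3-/-5xFAD, against 6155, 4721 and 4885 CPM in 5xFAD libraries (log2 difference 0.45 ± 0.16, SE; limma, adjusted p = 0.182). Fos, its partner, had 5200.2, 5349 and 4233 CPM in Il3-/-5xFAD, against 4236, 3701 and 3677 CPM in 5xFAD (0.34 ± 0.13, SE; limma, adjusted p = 0.214). For both genes 2 of 3 Il3-/-5xFAD libraries lay above all 5xFAD libraries.

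The order of libraries in the early-response genes was similar to that in the heat shock genes but not the same. By mean log2(CPM + 1), replicates 1 to 6 ranked 1, 3, 5, 2, 6 and 4 in the heat shock genes, from the highest. In the early-response genes they ranked 2, 1, 4, 3, 6 and 5, so replicate 5 was lowest in both. Replicate 2 of Il3-/-5xFAD was the highest of all 6 libraries for 23 of 24 early-response genes and for 0 of 10 heat shock genes. The median deviation from each gene's own mean (log2) in replicates 1, 2 and 3 of Il3-/-5xFAD was 0.32, 0.06 and -0.24 for heat shock genes, and 0.23, 0.42 and -0.11 for early-response genes. In replicates 4, 5 and 6 of 5xFAD it was 0.33, -0.36 and -0.18 for heat shock genes, and 0.02, -0.27 and -0.29 for early-response genes. Replicate 4 was nonetheless the highest 5xFAD library for all 24 early-response genes and for 9 of 10 heat shock genes. The part of the digestion in the heat shock values was not tested.

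**Figure D4:**
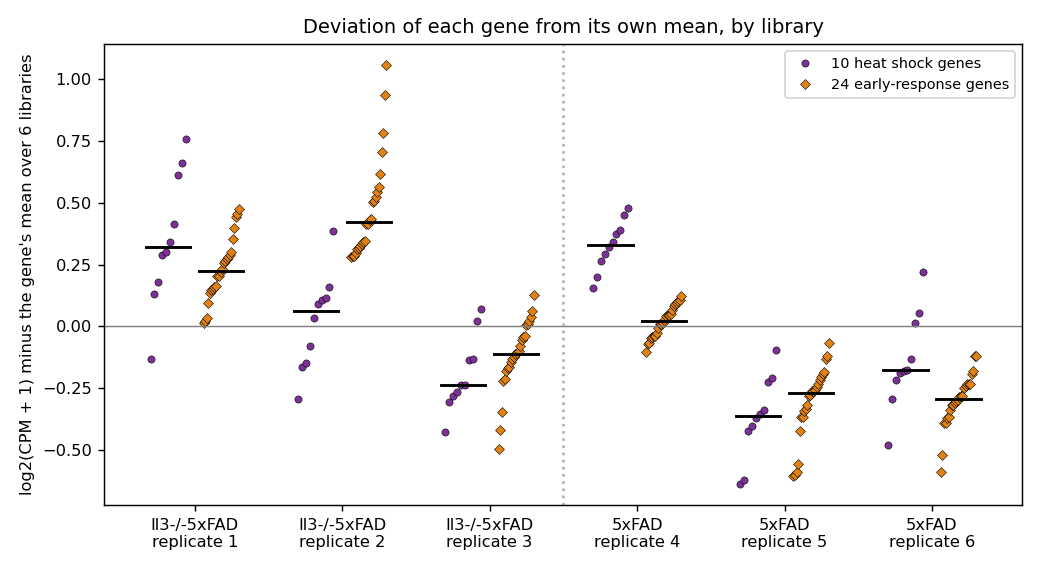
Deviation of log2(CPM + 1) from each gene's own mean over the 6 libraries, for the 10 heat shock genes and 24 early-response genes, 1 point per gene and a bar at the median of each set. Heat shock genes lie highest in replicates 1 and 4 (medians 0.32 and 0.33), early-response genes in replicate 2 (median 0.42), and both sets lie low in replicate 5.

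The wider chaperone network was described with lists of genes named by function, some of which share genes. They are to be read beside all genes tested, of which 16.5% were under 0.05 unadjusted and 5965 of 11900 had a negative log2 difference. Of the other HSP70, HSP110 and HSP90 genes, limma called 0 of 11 tested, with 7 positive, a median log2 difference of 0.02 and 3 under 0.05 unadjusted. The highest in mean CPM were Hsp90b1, the HSP90 of the endoplasmic reticulum (1401 ± 54.9 CPM in Il3-/-5xFAD, 1380 ± 41.1 CPM in 5xFAD; SD, n = 3 each), and Hyou1, an HSP110 relative that serves as a nucleotide exchange factor of BiP (254 ± 12.4 CPM in Il3-/-5xFAD, 227 ± 22.0 CPM in 5xFAD). edgeR called 0 of these 11, and DESeq2 called Hspa12a and Hspa4l lower in Il3-/-5xFAD, as did limma for Hspa12a without replicate 4 of 5xFAD. With array weights limma called both genes lower (8.0% of all genes tested). These 2 genes were picked after their values were seen, and for Hspa12a, a distant HSP70 relative, limma gave -0.98 ± 0.25 (SE, adjusted p = 0.0823), with 5.54, 11.7 and 10.5 CPM in Il3-/-5xFAD against 13.7, 21.3 and 21.4 CPM in 5xFAD libraries. For Hspa4l, an HSP110 relative, it gave -0.70 ± 0.20 (SE, adjusted p = 0.102).

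Of the other small heat shock genes, limma called 0 of 4 tested (median 0.02, 0 under 0.05 unadjusted; edgeR and DESeq2 0). Of these, Hspb3, known from muscle, and Hspb11, a subunit of intraflagellar transport, were the highest in mean CPM, at 10.4 ± 0.538 and 3.65 ± 0.781 CPM in Il3-/-5xFAD and 10.6 ± 1.36 and 3.64 ± 1.74 CPM in 5xFAD (SD, n = 3 each).

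The chaperonin genes, subunits of the cytosolic TRiC ring and Hspd1, had 0 of 9 called by limma, but all 9 log2 differences were negative, here and under all 18 alternatives, with a median of -0.13, 2 under 0.05 unadjusted (16.5% of all genes tested) and 5 whose libraries stood apart between the genotypes (21.2% of all genes tested). Cct2 had 157, 169 and 176 CPM in Il3-/-5xFAD, against 172, 182 and 192 CPM in 5xFAD (-0.12 ± 0.08, SE; limma, adjusted p = 0.488). Cct4 had 159, 152 and 153 CPM in Il3-/-5xFAD, against 175, 170.1 and 164 CPM in 5xFAD, without overlap (-0.13 ± 0.07, SE; limma, adjusted p = 0.408). DESeq2 called 1 of the list, Cct7, lower in Il3-/-5xFAD, as did limma with array weights (8.0% of all genes tested), and edgeR called 0. Over all genes tested, the median log2 difference was -0.14 in the fifth with the shortest transcripts and 0.09 in the fifth with the longest. The part of transcript length in the chaperonin values was not tested. Hspd1, the barrel to Hspe1, had 95.5, 88.5 and 93.9 CPM in Il3-/-5xFAD, against 106, 93.9 and 92.6 CPM in 5xFAD libraries, which overlapped (-0.07 ± 0.09, SE; limma, adjusted p = 0.730).

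Among the cochaperones of HSP70, limma called 0 of 35 other J-protein genes tested (18 positive and 17 negative, median 0.00, 4 under 0.05 unadjusted). Dnajc7, which passes clients between HSP70 and HSP90, had 302 ± 18.3 CPM in Il3-/-5xFAD and 299 ± 12.8 CPM in 5xFAD (SD, n = 3 each). Dnajc3, a J protein of the endoplasmic reticulum, had 185 ± 16.2 CPM in Il3-/-5xFAD and 177 ± 12.3 CPM in 5xFAD (SD, n = 3 each). The nucleotide exchange factors and inhibitors of HSP70 had 0 of 12 called by limma, with 10 negative differences and a median of -0.11, and 0 under 0.05 unadjusted. St13 (Hip), which slows the release of ADP from HSP70, had 218 ± 8.34 CPM in Il3-/-5xFAD and 239.8 ± 24.6 CPM in 5xFAD, and Bag6, which shields exposed hydrophobic segments, had 215 ± 1.91 CPM in Il3-/-5xFAD and 205 ± 10.9 CPM in 5xFAD (SD, n = 3 each). edgeR and DESeq2 called 0 genes of both lists. With array weights limma called 2 of the J-protein genes, Dnajb4 and Dnajc15, 1 higher and 1 lower (8.0% of all genes tested).

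HSP90 cochaperones had 0 of 19 called by limma, edgeR or DESeq2, with 14 negative differences, a median of -0.09 and 3 under 0.05 unadjusted. Fkbp8, an immunophilin of the mitochondrial outer membrane, had 169 ± 2.85 CPM in Il3-/-5xFAD and 181 ± 6.99 CPM in 5xFAD (SD, n = 3 each). Cdc37, which loads kinases onto HSP90, had 140.3, 139.9 and 166 CPM in Il3-/-5xFAD, against 156, 161 and 158 CPM in 5xFAD libraries. For 10 of the 19, replicate 4, which was high in the heat shock genes, was the highest of all 6 libraries. Heat shock factors and their regulators had 0 of 7 called by limma, edgeR or DESeq2 (median 0.11, 2 under 0.05 unadjusted). Vcp, a segregase of ubiquitinated proteins, had 168 ± 19.1 CPM in Il3-/-5xFAD and 180.5 ± 4.56 CPM in 5xFAD, and Hsbp1, a binder of HSF1, had 85.3 ± 10.9 CPM in Il3-/-5xFAD and 102 ± 2.25 CPM in 5xFAD (SD, n = 3 each). The 3 Hsbp1 libraries of Il3-/-5xFAD all lay below those of 5xFAD (-0.26 ± 0.10, SE; limma, adjusted p = 0.212).

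Around Hspa5, the endoplasmic reticulum stress genes had 0 of 26 called by limma, edgeR or DESeq2, with 21 positive differences (15 with quantile normalization), a median of 0.07 and 3 under 0.05 unadjusted. Without replicate 3 of Il3-/-5xFAD, 13 of 25 were positive, and limma called 1, Sdf2l1, lower. Calr, a lectin chaperone that holds calcium, had 1328, 1327 and 1483 CPM in Il3-/-5xFAD, against 1371, 1300.1 and 1358 CPM in 5xFAD libraries. Replicate 3 of Il3-/-5xFAD, the lowest of its genotype for Hspa5, was the highest for Calr and for Hsp90b1. The mitochondrial chaperones and proteases around Hspe1 had 0 of 11 called by limma, edgeR or DESeq2, with 10 negative differences, a median of -0.06 and 0 under 0.05 unadjusted. This list shares Hspd1, Hspa9, Trap1, Grpel1, Grpel2 and Dnaja3 with the chaperone and cochaperone lists above. The endoplasmic reticulum list shares Hsp90b1, Hyou1, Dnajb9, Dnajb11 and Dnajc3 with them. Hspa9, the mitochondrial HSP70, had 158, 168 and 180 CPM in Il3-/-5xFAD, against 177, 185 and 209.97 CPM in 5xFAD libraries, with replicate 3 overlapping replicate 4 (-0.17 ± 0.09, SE; limma, adjusted p = 0.358).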

How the data were processed

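Gene-level values were deposited by the authors as CPM (reads per 1000000 counted) for 6 RNA-seq libraries. STAR, HTSeq, edgeR and mm9 are named, without versions, in the submitters' processing notes. The annotation and the treatment of reads that fit several genes are not given there. Divided by the value of 1 read, 100% of the deposited values were whole within 0.01 reads, so read counts were recovered. One read was worth 0.0266 to 0.0358 CPM. No libraries of a genotype were duplicates (lowest chi-square per degree of freedom 22.1).

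Genotypes came from the sample titles. Tested were the 11900 genes (59.1%) that reached 1 CPM in 3 or more libraries, on log2(CPM + 1) with limma 3.58.1 (lmFit, eBayes with trend, two-sided) in R 4.3.3, with Benjamini-Hochberg adjustment over all genes tested and a threshold of 0.05. On this scale the change of low genes is understated. Other settings were a pseudocount of 0.25 or 5, all genes unfiltered, a mean of 5 CPM or more, other scalings, variance models and weights, leaving out each library, edgeR 4.0.16 (quasi-likelihood) and DESeq2 1.42.0 on the recovered reads. Exact permutation tests used scipy 1.17.1. The fit was tested on simulated reads with a common dispersion and with changes larger than the members' fitted differences. That test does not tell how well differences of the members' size would be found.

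The members and lists were chosen with earlier results of these data known. Named beside the 10 members were the 2 genes highest in mean CPM of each list of chaperones, cochaperones, regulators, stress and early-response genes, since none was called there, and the 5 genes closest in pattern to Hspa1a plus Hspa1b and to Hspa8. The rule also named the 2 highest of each marker list, which are given as summed levels only. Other genes named were chosen after their values were seen.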

Additional observations from a re-analysis of the deposited data

How the results depend on the processing

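The count of members called was 0 under all 18 alternatives, with a lowest adjusted p of 0.0877 (Dnajb1). Hspa5, Hspb1, Hspe1 and Dnajb1 kept the sign of their log2 difference in all 18. The difference of Hspa1b, -0.04, was 0.058 with array weights and above 0 with edgeR (TMM, 0.00645, or library totals, 0.00978) and DESeq2 (0.00515). Leaving out 1 library gave log2 differences from -0.18 to 0.37 for Hspa1a, -0.38 to 0.17 for Hspa1b, -0.06 to 0.32 for Hspa8, -0.0010 to 0.35 for Hsp90aa1, -0.18 to 0.08 for Hsp90ab1, -0.12 to 0.22 for Dnaja1, 0.11 to 0.38 for Hspa5, 0.23 to 0.81 for Hspb1, -0.28 to -0.12 for Hspe1 and 0.12 to 0.59 for Dnajb1. It gave -0.05 to 0.34 for the median of the members, and -0.29 to 0.06, 0.13 to 0.31 and 0.17 to 0.37 for the differences in the ratios of HSP70, HSP90 and J proteins. Their signs turned without replicate 1 of Il3-/-5xFAD (Hspa1a -0.18, Hspa8 -0.01, Dnaja1 -0.08) or without replicate 5 of 5xFAD (Hspa1a -0.04, Hspa8 -0.064, Hsp90aa1 -0.0010, Dnaja1 -0.12). They also turned without replicate 6 (Hspa1a -0.02), without replicate 4 (Hspa1b 0.17, Hsp90ab1 0.077) and without replicates 2 or 3 (Hspa1b 0.09 and 0.16).

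The background of 105 genes called was 8 with no filter, 68 with a mean of at least 5 CPM, 65 with median-ratio rescaling, 10 without the variance trend, 952 with array weights, 60 and 69 with edgeR (TMM and library totals) and 605 with DESeq2. It was 11 to 587 when 1 library was left out, the extremes without replicate 6 of 5xFAD and without replicate 3 of Il3-/-5xFAD. The split was 30 higher and 75 lower in Il3-/-5xFAD, and 25 higher and 35 lower with edgeR's TMM scaling. The cause of these shifts was not tested. No paired analysis was possible because the genotypes share no replicate number.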
